A study of Mus musculus with 14 samples.

Results

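The genes described here are 7 matrix metalloproteinases, Mmp2, Mmp8, Mmp9, Mmp12, Mmp13, Mmp14 and Mmp19, and 3 tissue inhibitors of metalloproteinases, Timp1, Timp2 and Timp3. They were named by symbol as enzymes and inhibitors of matrix breakdown, with earlier results of these data known. Their counts and medians beside those of all genes are therefore descriptions and not tests of the family. On the array 12 probes carried them among the 20656 genes named. All 10 were among the 20338 genes tested, each of which had a probe well above background on at least 3 arrays. Mmp8 and Mmp13 met that requirement only through arrays of thioglycollate-treated mice.

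RNA came from peritoneal macrophages of C57BL/6 mice, sorted as positive for both CD11b and F4/80, and each sample was hybridised to 1 array with 1 dye. Thio+IL-4c (4 arrays) received 2 ml of 4% thioglycollate broth together with IL-4 complex, and Thio (3 arrays) received the broth without the complex. IL-4c (4 arrays) received the complex, made of 5 µg of IL-4 and 25 µg of 11B11, an antibody to IL-4, and PBS (3 arrays) received the vehicle, all by intraperitoneal injection. Thioglycollate recruits blood monocytes into the cavity, so the cells of the Thio groups are called elicited and the others resident, although the same sort was used for all 4 groups. How long after injection the cells were collected is not stated in the labels used here. The labels do not settle whether replicates came from separate or pooled mice, so the p-values reflect the spread among the arrays at hand, which may be technical, and the small number of arrays limits the precision.

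Matrix metalloproteinases are zinc-dependent endopeptidases that are made as inactive precursors and, once activated, cut collagens, elastin, gelatin and many secreted proteins. The inhibitors bind the active site and hold the enzymes in check, so the balance between enzymes and inhibitors sets how much matrix a cell can remove. Macrophages are known for secreting several of these enzymes during inflammation and tissue repair, and IL-4 is known as a cytokine that reshapes their secreted products.

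Array brightness, taken as the 75th percentile of processed signals, lay between 1275 and 3883, between 79.4% and 95.8% of spots were well above background, and no spot was saturated. A level below is log2 of the signal divided by that percentile on the same array, and levels of different genes come from different probes and cannot be compared with each other. The sort markers were present in every group: the F4/80 gene Adgre1 had signals of 22899.9 to 29429 in Thio+IL-4c, 62448 to 96211 in Thio, 235182 to 288465 in IL-4c and 122395 to 177152 in PBS. Arrays lay on 2 slides, slide 1 with all PBS and IL-4c arrays and Thio replicate 1, and slide 2 with Thio replicates 2 and 3 and all Thio+IL-4c arrays. Thio replicate 1 stood apart from its group, with correlations across genes of 0.848 and 0.865 with the other Thio arrays, which correlated at 0.984 with each other. Thio was the only group on both slides. Fits with the slide as a block therefore take the slide difference from Thio replicate 1 against the other Thio arrays, and rest on that 1 array.

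Dim signals also depended on where a spot lay on the array. Among 399 probes with 10 spots each, those with a signal under 1024 were brighter in the right than in the left part on every slide 1 array, by a median log2 difference of 1.32 to 2.96. On every slide 2 array they were dimmer in the right part, with differences of -1.68 to -1.18. Probes of 4096 or more differed between the sides by -0.07 to 0.07. Each gene is therefore set beside the 30 nearest spots of olfactory and vomeronasal receptor genes, chemosensory genes taken here as a gauge of the local signal of probes without a strong target. The nearby median is the median signal of those spots on the same array, and a signal counts as above the nearby spots when it exceeded their 90th percentile.

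In Thio versus PBS 8 of the 10 genes passed the test, 5 higher and 3 lower, where 44.5% of all genes passed (20.2% higher and 24.3% lower). The rises were those of the collagenases Mmp8 and Mmp13, the metalloelastase Mmp12, the membrane-anchored Mmp14 and the inhibitor Timp1. The falls were those of Mmp9, Timp2 and Mmp2, but the direction of Mmp2 did not hold with the slide as a block, where its difference was 0.07. The test was limma's, with Benjamini-Hochberg adjusted p under 0.05 over all genes, and the Thio and PBS arrays did not overlap for 7 of the 8 called genes, all but Mmp2, nor for Mmp19, which did not pass. Among the 20155 genes with a value on all arrays, those of Thio and PBS did not overlap for 42.4%.

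IL-4 complex moved 7 genes in elicited cells, where 39.4% of all genes passed in Thio+IL-4c versus Thio (16.2% higher and 23.1% lower). Timp1 and Mmp13 rose, and Mmp8, Mmp12, Mmp14, Timp2 and Timp3 fell. In resident cells 5 genes passed in IL-4c versus PBS, with Mmp14 and Timp1 higher and Mmp8, Mmp9 and Timp2 lower, where 32.2% of all genes passed (16.9% higher and 15.3% lower). Between elicited and resident cells that had both received IL-4 complex, 9 of the 10 genes passed, 6 higher and 3 lower, where 70.0% of all genes passed (27.9% higher and 42.2% lower). Thio+IL-4c and IL-4c share no slide, so in this comparison the kind of cells and the slide cannot be told apart. The interaction, which is the response to IL-4 complex in elicited cells minus that in resident cells, passed for 4 genes, Mmp9 and Timp1 with a positive and Mmp12 and Mmp14 with a negative sign, where 32.6% of all genes passed (12.7% positive and 19.9% negative).

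The median log2 difference of the 10 genes was 1.57 in Thio versus PBS, where that of all genes was -0.09, and 1.96 in Thio+IL-4c versus IL-4c, where that of all genes was -0.21. It was -0.94 against 0.03 over all genes in Thio+IL-4c versus Thio, and -0.19 against -0.01 in IL-4c versus PBS. These comparisons share arrays, since PBS, Thio, IL-4c and Thio+IL-4c each enter 2 of them besides the interaction. In sorted but bulk samples, fewer cells of a type and less RNA per cell cannot be told apart.

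**Figure D1:**
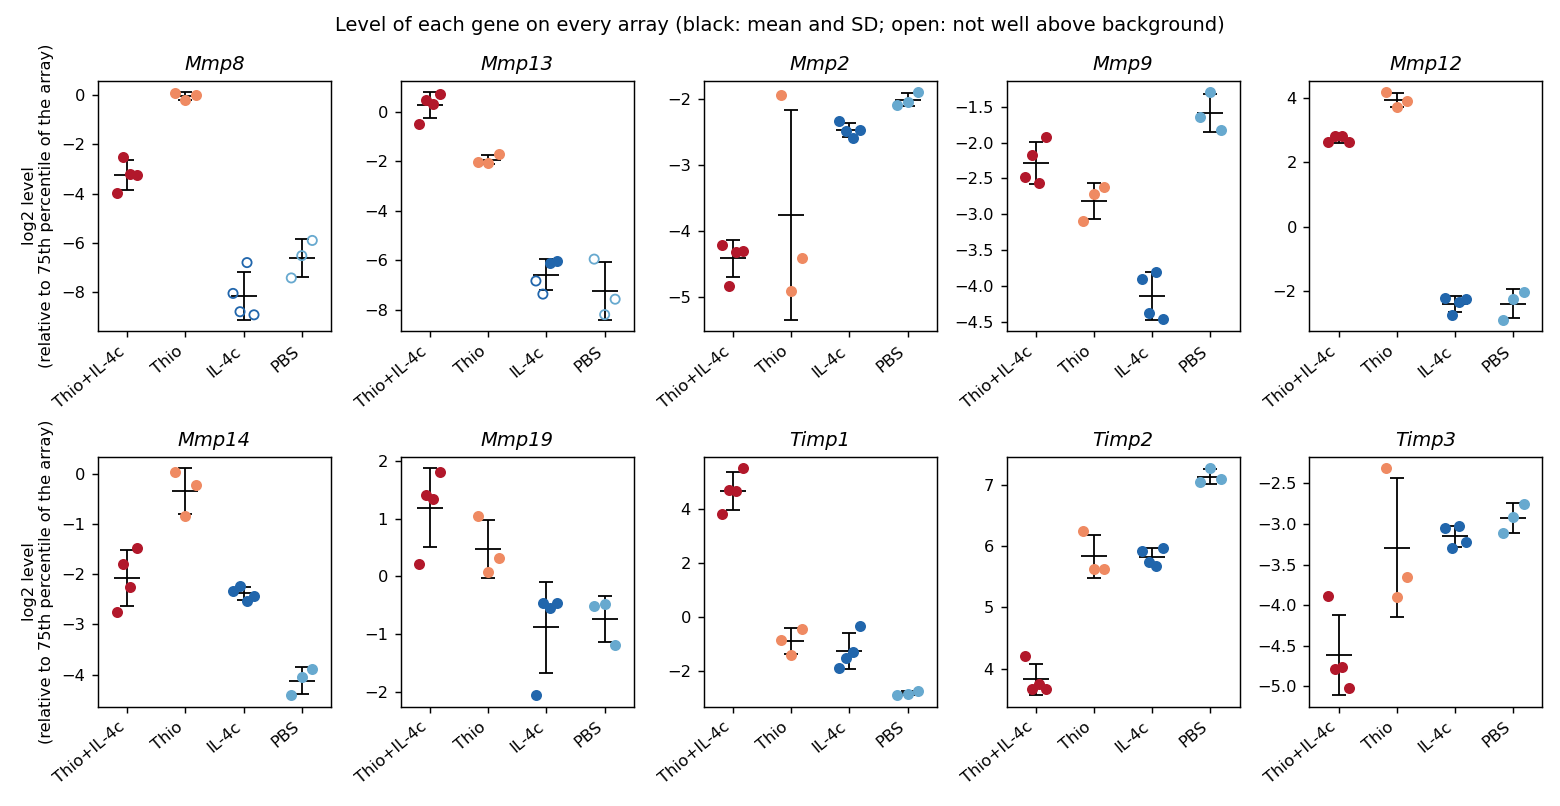
Level of each gene (vertical axis, log2 of signal relative to the 75th percentile of the array) on all 14 arrays, by group, with the mean and SD in black. Open circles are arrays on which the gene's probes were not well above background. Mmp8, Mmp12 and Mmp13 stand higher in both elicited groups than in both resident groups, Timp1 stands highest in Thio+IL-4c, and Timp2 stands lowest there.

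**Figure D2:**
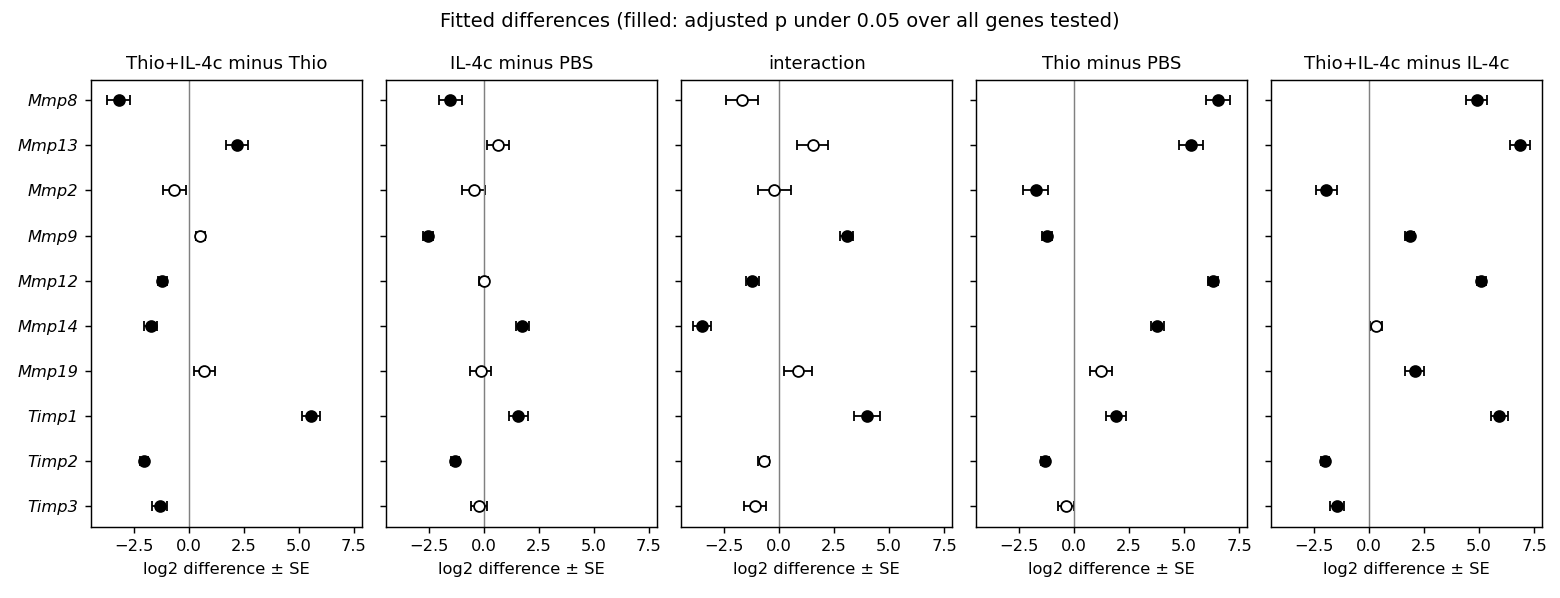
Fitted log2 differences (horizontal axis, with SE) of the 10 genes (vertical axis) in the 5 comparisons, with filled points for an adjusted p under 0.05. The interaction is the Thio+IL-4c minus Thio difference less the IL-4c minus PBS difference. The Timp1 difference is 5.55 in elicited and 1.57 in resident cells, and the Mmp14 difference is -1.73 in elicited and 1.74 in resident cells. The Mmp8 and Mmp13 points against resident groups rest on arrays not well above background, so their size is not measured.

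Mmp8, Mmp12 and Mmp13 lie on chromosome 9, all rose in Thio versus PBS, and their promoters are shown to let their sequences be compared. Of the further family members tested on chromosome 9, Mmp10 and Mmp20 also passed as higher in Thio versus PBS, and Mmp1a, Mmp1b, Mmp3 and Mmp7 did not pass. Of all genes, 44.5% passed in that comparison, 20.2% as higher. Mmp20 signals in Thio were only 15.9 to 283, beside nearby medians of 73.0 to 830. A part of the place on the chromosome was not tested. Timp1, on chromosome X, is shown as the inhibitor with the largest rise. Each sequence is the RefSeq window on GRCm38.p6 from 250 bases before to 50 bases after the annotated start, plus strand, 5′ to 3′. Capitals mark matches on either strand to an AP-1 site (TGANTCA), a PU.1 type site (GAGGAAGT) or a TATA box (TATAAA).
Mmp8, chr9:7558179-7558478: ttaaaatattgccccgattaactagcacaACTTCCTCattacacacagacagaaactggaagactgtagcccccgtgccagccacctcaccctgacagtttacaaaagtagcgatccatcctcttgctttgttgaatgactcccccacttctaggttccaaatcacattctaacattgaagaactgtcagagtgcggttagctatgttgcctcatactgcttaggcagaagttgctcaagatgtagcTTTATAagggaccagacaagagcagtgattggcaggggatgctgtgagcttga
Mmp12, chr9:7347124-7347423: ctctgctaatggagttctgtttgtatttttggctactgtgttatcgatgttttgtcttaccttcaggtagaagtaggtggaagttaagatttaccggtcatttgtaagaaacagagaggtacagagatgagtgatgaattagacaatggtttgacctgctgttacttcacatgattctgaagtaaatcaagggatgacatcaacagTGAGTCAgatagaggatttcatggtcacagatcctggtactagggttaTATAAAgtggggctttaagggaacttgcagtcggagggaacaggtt
Mmp13, chr9:7272264-7272563: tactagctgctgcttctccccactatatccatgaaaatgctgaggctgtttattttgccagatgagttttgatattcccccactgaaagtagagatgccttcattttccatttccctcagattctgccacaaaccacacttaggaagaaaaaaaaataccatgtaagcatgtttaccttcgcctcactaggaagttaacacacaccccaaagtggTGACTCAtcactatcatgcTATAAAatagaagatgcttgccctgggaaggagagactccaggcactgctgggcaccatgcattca
Timp1, chrX:20869916-20870215: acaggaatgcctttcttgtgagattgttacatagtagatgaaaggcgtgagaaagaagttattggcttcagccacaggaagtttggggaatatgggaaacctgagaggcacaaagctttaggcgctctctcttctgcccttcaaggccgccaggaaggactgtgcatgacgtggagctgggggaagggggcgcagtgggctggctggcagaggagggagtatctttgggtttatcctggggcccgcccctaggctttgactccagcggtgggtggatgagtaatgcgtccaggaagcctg
The Mmp13 window held TGACTCA starting at -35 and TATAAA starting at -16, counted from the annotated start as 0. The Mmp12 window held TGAGTCA at -44 and TATAAA at 4. A further annotated Mmp12 start, upstream of this window, had neither of these but ACTTCCTC, the PU.1 type match on the other strand, at -88. The Mmp8 window held ACTTCCTC at -221 and TTTATA at -3, and the Timp1 window held none of these motifs. Among 32851 RefSeq windows of the same length, 7.81% held the AP-1 letters, 3.2% the PU.1 type letters and 13.6% the TATA letters. A STAT6 type site, in 6.95% of all windows, was absent from the windows of the 7 genes with an entry, which also included Mmp14, Timp2 and Timp3. A match is a description of letters and not of a site in use.

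Mmp8, the neutrophil type collagenase, had levels of -3.99, -2.52, -3.22 and -3.23 in the Thio+IL-4c arrays. In the Thio arrays they were 0.07, -0.22 and -0.01, while no IL-4c or PBS array had a signal well above background. The elicited groups stood clear of each other and of the resident groups. Mmp8 fell in Thio+IL-4c versus Thio, with a log2 difference of -3.19 (SE 0.51, limma adjusted p = 0.00038). A bound was computed from the lowest signal well above background on the dim arrays. By it Mmp8 was at least 65.6-fold higher in Thio than in PBS (adjusted p = 2.4e-06), a size not reached under normexp. Computed on the same scale, it was at least 13.6-fold higher in Thio+IL-4c than in IL-4c (adjusted p = 5.2e-06), but this bound, 3.77 on the log2 scale, was not reached under other processing. The Mmp8 difference in Thio+IL-4c versus IL-4c was then 2.42 under normexp (adjusted p = 1.3e-06), 1.502 in the authors' table (adjusted p = 1.5e-05) and 1.52 under normalization within 24 blocks of the array (adjusted p = 0.022). The IL-4c versus PBS difference also passed (adjusted p = 0.04), but no array of either group was well above background, so no size is given. That call was lost without any 1 of PBS replicates 2 and 3, IL-4c replicates 1, 2 and 4, Thio replicates 2 and 3 and Thio+IL-4c replicates 3 and 4, with adjusted p between 0.0505 and 0.174. The Mmp8 interaction did not pass (adjusted p = 0.1), but passed under normexp background correction (adjusted p = 0.00168) and in the authors' table of log2 values (adjusted p = 0.000112).

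The Mmp8 signal of Thio was 2413, 2986 and 3550, which is 35.6, 4.46 and 4.28 times the nearby median, and it was above the nearby spots on all 3 arrays. In Thio+IL-4c it was 128.6 to 443, only 0.21 to 0.66 times the nearby median. Between Thio+IL-4c and IL-4c the nearby receptor spots themselves were higher, by 3.38 on the log2 scale of unscaled signals, beside 4.27 for Mmp8. Under normexp, whose offset pulls dim values together, the Thio versus PBS difference was 4.04 (adjusted p = 7.1e-08), below the 6.03 of the bound on the log2 scale. It was 3.53 in the authors' table (adjusted p = 5.4e-08). Nearby spots rose by 3.10 in that comparison on the log2 scale of unscaled signals, beside 7.47 for Mmp8. On slide 1, where the nearby median was 67.7 for Thio replicate 1 and 22.4 to 63.9 for PBS, Thio minus PBS also passed as higher (adjusted p = 0.0025). In this and the other fits within slide 1 the lone Thio array is assumed to vary like the others. On slide 2 the Thio+IL-4c minus Thio difference was -3.12 (adjusted p = 0.0021).

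Mmp13, the interstitial collagenase of rodents, was the collagenase that IL-4 complex raised in elicited cells. Its levels were -0.49, 0.50, 0.33 and 0.71 in Thio+IL-4c and -2.01, -2.06 and -1.72 in Thio. In IL-4c they were -6.84, -7.37, -6.11 and -6.04, the last 2 of them well above background, and no PBS array was well above background. All Thio+IL-4c arrays lay above all Thio arrays, and these above all resident arrays. The difference was 2.19 in Thio+IL-4c versus Thio (SE 0.50, adjusted p = 0.004) and 6.85 in Thio+IL-4c versus IL-4c (SE 0.46, adjusted p = 2.8e-07). The size of the second rests on IL-4c arrays of which only 2 of 4 were well above background, and it was 5.26 under normexp (adjusted p = 8e-09) and 4.42 in the authors' table (adjusted p = 9.1e-09). In Thio versus PBS Mmp13 passed as higher (adjusted p = 1e-05), with a bound of 18.6-fold, or 4.22 on the log2 scale. That bound was not reached under some other processing, as given below. IL-4c versus PBS did not pass (adjusted p = 0.4), although it did without PBS replicate 1 (adjusted p = 0.0377). The Mmp13 interaction did not pass either (adjusted p = 0.12), but passed without PBS replicate 2 (adjusted p = 0.0445) and under normexp (adjusted p = 0.000177).

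Signals of Mmp13 were 1451, 3609, 2666 and 3464 in Thio+IL-4c, or 4.81 to 12.2 times the nearby median, and exceeded the nearby spots on 3 of 4 arrays. In Thio they were 570, 836 and 1084. Thio replicate 1 was at 23.2 times its nearby median, while the other Thio arrays, on slide 2, were at 1.56 and 1.97 times theirs. Thio minus PBS passed as higher within slide 1 (adjusted p = 0.0064), and the Thio+IL-4c minus Thio difference was 2.15 within slide 2 (adjusted p = 0.0054). In Thio versus PBS the difference was 2.59 under normexp (adjusted p = 1.6e-05) and 1.92 in the authors' table (adjusted p = 9.5e-05). Under normalization within 24 blocks it was 3.71 (adjusted p = 0.00089). All of these lay below the 4.22 of the bound on the log2 scale. Nearby spots rose by 3.42 in that comparison on the log2 scale of unscaled signals, beside 6.23 for Mmp13. The collagenases thus went opposite ways under IL-4 complex in elicited cells, Mmp8 lower and Mmp13 higher.

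Mmp12, the macrophage metalloelastase, which cuts elastin, was bright in elicited cells and near the signal of the receptor spots in resident ones. Signals were 12520.1, 17925, 14758 and 13066 in Thio+IL-4c and 41032, 45768 and 53021 in Thio. They were 576 to 739 in IL-4c and 245 to 380 in PBS. The elicited arrays were far above the resident ones without overlap, and the Thio arrays were above the Thio+IL-4c arrays. The log2 difference was 6.31 in Thio versus PBS (SE 0.22, adjusted p = 2e-09), 5.10 in Thio+IL-4c versus IL-4c (SE 0.19, adjusted p = 2.8e-09) and -1.21 in Thio+IL-4c versus Thio (SE 0.20, adjusted p = 0.0005).

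In resident cells the Mmp12 levels were -2.39 ± 0.25 in IL-4c (SD, n = 4) and -2.39 ± 0.44 in PBS (SD, n = 3), a difference of 0.00 (SE 0.20, limma adjusted p = 1.0). Resident signals were 0.95 to 1.62 times the nearby median, whereas elicited signals were 78.7 to 270 times it. A dimmer Mmp12 probe, which no resident array measured well above background, had a difference of -1.94 in Thio+IL-4c versus Thio. Within slide 1 the Thio minus PBS difference was 6.55 (adjusted p = 6.2e-05), and within slide 2 the Thio+IL-4c minus Thio difference was -1.09 (adjusted p = 0.0012). The interaction of -1.21 (SE 0.29, adjusted p = 0.0067) sets a fall in bright signals beside a difference of 0.00 between signals near those of the receptor spots.

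Mmp14, a membrane-type enzyme that cuts collagen and activates the precursor of Mmp2, answered IL-4 complex in opposite directions in the 2 kinds of cells. Its levels were -2.75, -1.80, -2.25 and -1.47 in Thio+IL-4c, 0.05, -0.84 and -0.22 in Thio, -2.33, -2.22, -2.53 and -2.43 in IL-4c and -4.42, -4.05 and -3.90 in PBS. Thio was highest and PBS lowest without overlap, and Thio+IL-4c and IL-4c overlapped in between. Mmp14 fell by 1.73 on the log2 scale in Thio+IL-4c versus Thio (SE 0.29, adjusted p = 0.00047) and rose by 1.74 in IL-4c versus PBS (SE 0.29, adjusted p = 0.00053). The interaction was -3.47 (SE 0.41, adjusted p = 6.2e-05).

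Mmp14 rose by 3.79 in Thio versus PBS (SE 0.31, limma adjusted p = 1.8e-06). In Thio+IL-4c versus IL-4c the difference was 0.31 (SE 0.27, adjusted p = 0.31), but it was 1.66 and passed (adjusted p = 0.00023) when arrays were normalized within 24 blocks of their surface. Signals were 2.89 to 12.6 times the nearby median in Thio+IL-4c, 7.74 to 25.9 times in Thio, 1.35 to 1.67 times in IL-4c and 0.44 to 0.52 times in PBS. Between IL-4c and PBS, which share slide 1, the nearby spots were higher by 1.12 on the log2 scale of unscaled signals, beside 2.81 for Mmp14. Between Thio+IL-4c and Thio the nearby spots differed by -1.11 on that scale, beside -2.21 for Mmp14. The within-slide differences were -1.54 in Thio+IL-4c versus Thio (adjusted p = 0.025) and 4.17 in Thio versus PBS (adjusted p = 5e-05).

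Mmp19, a secreted enzyme that cuts basement membrane proteins, was measured above the nearby median on every array, at 4.66 to 34.7 times it. Its levels were 0.21, 1.41, 1.35 and 1.81 in Thio+IL-4c, 1.05, 0.08 and 0.32 in Thio, -2.06, -0.46, -0.55 and -0.47 in IL-4c and -0.52, -0.49 and -1.19 in PBS. Each elicited array was above each resident array, and the groups within each kind overlapped. The difference passed in Thio+IL-4c versus IL-4c, at 2.08 (SE 0.43, adjusted p = 0.0011). It was 1.21 in Thio versus PBS (SE 0.49, adjusted p = 0.064), 0.71 in Thio+IL-4c versus Thio (adjusted p = 0.23) and -0.15 in IL-4c versus PBS (adjusted p = 0.87). The Thio versus PBS difference of Mmp19 passed without IL-4c replicate 1 (adjusted p = 0.0292), without Thio+IL-4c replicate 1 (adjusted p = 0.043) and under normalization within 24 blocks (1.496, adjusted p = 0.0031). Within slides, Thio+IL-4c minus Thio was 0.996 (adjusted p = 0.125) and Thio minus PBS was 1.78 (adjusted p = 0.098). With array weights Thio+IL-4c versus Thio was 1.02 and passed (adjusted p = 0.0461).

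Mmp2 and Mmp9 are the gelatinases, which cut denatured collagen and basement membrane collagen. Mmp2 signals were 111, 89.8, 106 and 108 in Thio+IL-4c, 600, 116 and 170 in Thio, 678, 695, 539 and 551 in IL-4c and 426, 443 and 342 in PBS. All slide 1 arrays were high and all slide 2 arrays low, also within Thio. Signals were 0.41 to 1.06 times the nearby median and exceeded the nearby spots on no array. Mmp2 passed as lower in Thio versus PBS (-1.74, SE 0.56, limma adjusted p = 0.027) and in Thio+IL-4c versus IL-4c (-1.94, SE 0.49, adjusted p = 0.0039). With the slide as a block these differences were 0.07 and 0.77, so the direction did not hold. That fit rests on Thio replicate 1 as the only Thio array on slide 1, so it cannot tell a slide effect from an unusual array. Without Thio replicate 1 the Thio versus PBS difference was -2.64 (adjusted p = 9.4e-07). Without any 1 of the PBS arrays or of the other Thio arrays that call was lost, with adjusted p between 0.0538 and 0.118. Mmp2 differed by -0.66 in Thio+IL-4c versus Thio (adjusted p = 0.32) and by 0.24 without Thio replicate 1 (adjusted p = 0.344), but by -1.13 under normalization within 24 blocks (adjusted p = 0.0045). In IL-4c versus PBS it was -0.46 (adjusted p = 0.6), with an adjusted p of 0.0407 without Thio replicate 1.

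Mmp9 levels, each the mean of 10 spots, were -2.48, -2.17, -2.56 and -1.92 in Thio+IL-4c, -3.09, -2.72 and -2.62 in Thio, -3.90, -4.38, -3.80 and -4.46 in IL-4c and -1.65, -1.30 and -1.82 in PBS. PBS was highest and IL-4c lowest, with no overlap between any 2 groups in the 4 comparisons. The differences were -2.54 in IL-4c versus PBS (SE 0.22, limma adjusted p = 3.6e-06), -1.22 in Thio versus PBS (SE 0.24, adjusted p = 0.0015) and 1.85 in Thio+IL-4c versus IL-4c (SE 0.20, adjusted p = 1.4e-05). In Thio+IL-4c versus Thio it was 0.53 (SE 0.22, adjusted p = 0.076), and the interaction was 3.07 (SE 0.31, adjusted p = 2.1e-05). The Thio+IL-4c versus Thio difference of Mmp9 passed under normexp (0.47, adjusted p = 0.0238) and under normalization within 24 blocks (0.49, adjusted p = 0.0154), and was 0.39 within slide 2 (adjusted p = 0.177).

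The Mmp9 spots did not give the same differences in all parts of the array. On slide 1 the 4 left spots, where receptor spots were dim, had signals of 15.8 to 87.9 in IL-4c, 124.5 to 187 in Thio replicate 1 and 261 to 721 in PBS, with no overlap. The 5 right spots there had 210 to 1003 in IL-4c, 285 to 629 in Thio replicate 1 and 340 to 931 in PBS, beside nearby medians of up to 864 in IL-4c and up to 426 in PBS. From left spots only, the IL-4c minus PBS difference was -4.50 (adjusted p = 4.1e-05), and from right spots only it was -0.70 (adjusted p = 0.11). Thio+IL-4c minus IL-4c was 4.55 (adjusted p = 1.2e-05) on the left and -0.68 (adjusted p = 0.049) on the right, so its direction depended on the spots read.

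Within slide 1, the Mmp9 difference of Thio replicate 1 from PBS was -1.504 (adjusted p = 0.015) over all spots. Among left spots on that slide, all signals of Thio replicate 1 lay below those of PBS, while among right spots the ranges overlapped. Over the arrays of both slides, Thio minus PBS was -0.72 (adjusted p = 0.31) from left spots only and -1.69 (adjusted p = 0.0016) from right spots only. These fits mix Thio arrays of both slides and do not describe slide 1 alone. Over the same arrays the interaction was 5.27 (adjusted p = 0.00025) on the left and 1.01 (adjusted p = 0.097) on the right. Mmp9 exceeded its nearby spots on 2 arrays, PBS replicates 2 and 3. These splits by place were made after the data had been seen.

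**Figure D3:**
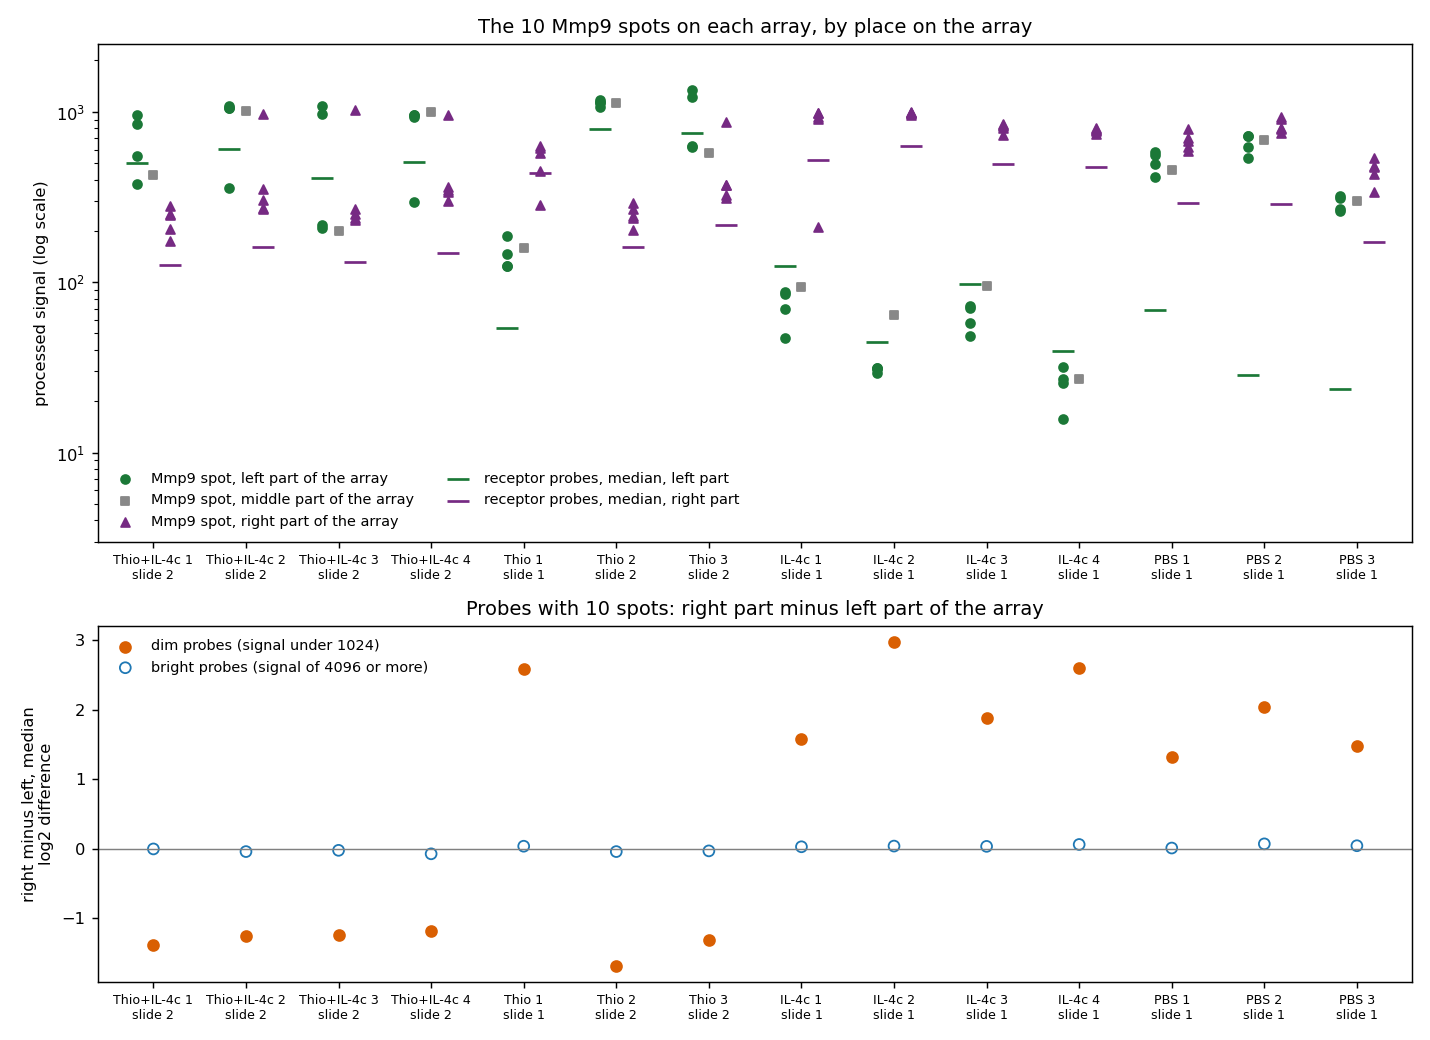
Top, processed signal (log axis) of the 10 Mmp9 spots on each array, by their place on the array, with the median of all receptor probes in the left and right part as bars. Bottom, median log2 difference between right and left spots of probes with 10 spots, for dim and bright probes. Dim probes lie at 1.32 to 2.96 on slide 1 and at -1.68 to -1.18 on slide 2, and bright probes near 0 on both.

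Timp1, a secreted inhibitor that is inducible in many cells, had the largest response to IL-4 complex among the 10 genes in elicited cells. Signals were 28478, 65671, 53787 and 96892 in Thio+IL-4c, 1271, 1335 and 2660 in Thio, 928, 1377, 1341 and 2482 in IL-4c and 249, 256 and 193.5 in PBS. Every Thio+IL-4c array was more than 10 times as bright as any other array, and PBS was lowest without overlap, while Thio and IL-4c overlapped. Timp1 rose by 5.55 on the log2 scale in Thio+IL-4c versus Thio (SE 0.41, limma adjusted p = 8.9e-07) and by 1.57 in IL-4c versus PBS (SE 0.41, adjusted p = 0.012). The interaction was 3.99 (SE 0.59, adjusted p = 0.00031).

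Timp1 also rose by 1.92 in Thio versus PBS (SE 0.44, adjusted p = 0.005) and by 5.90 in Thio+IL-4c versus IL-4c (SE 0.38, adjusted p = 2.2e-07). Its signal was 478 to 1140.1 times the nearby median in Thio+IL-4c, 3.74 to 23.4 times in Thio, 2.09 to 6.65 times in IL-4c and 1.11 to 1.22 times in PBS. Within slide 2 the Thio+IL-4c minus Thio difference was 5.57 (adjusted p = 0.00078), and within slide 1 the Thio minus PBS difference was 1.95 (adjusted p = 0.036). On its probe, then, PBS signals were close to those of the nearby receptor spots, and Thio+IL-4c signals were well above 4096, from where probes differed between the sides of the array by at most 0.07.

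Timp2, an inhibitor that also takes part in the activation of Mmp2 by Mmp14, was bright in every group and moved the other way from Timp1. Signals were 37688, 32463, 28442 and 26806 in Thio+IL-4c, 174147, 173044 and 176175 in Thio, 205708, 208229, 165022 and 191468 in IL-4c and 239287, 282376 and 174708 in PBS. Thio+IL-4c was lowest without overlap on either scale. Relative to the 75th percentile, PBS was highest without overlap, with levels of 7.04 to 7.28, beside 5.62 to 6.25 in Thio and 5.67 to 5.97 in IL-4c, which overlapped. Before scaling, signals of Thio, IL-4c and PBS overlapped.

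Timp2 fell by 2.01 in Thio+IL-4c versus Thio (SE 0.18, limma adjusted p = 3.6e-06) and by 2.00 in Thio+IL-4c versus IL-4c (SE 0.17, adjusted p = 1.4e-06). It fell by 1.31 in IL-4c versus PBS (SE 0.18, adjusted p = 0.00013) and by 1.31 in Thio versus PBS (SE 0.19, adjusted p = 0.00022). A further Timp2 probe gave -1.69, -2.11, -0.75 and -1.17 in these comparisons, in the same order. The interaction was -0.70 (SE 0.25, adjusted p = 0.055) and passed under several other normalizations, with -1.31 under quantile normalization. It also passed without Thio replicate 2 (-0.80), Thio replicate 3 (-0.81) or Thio+IL-4c replicate 1 (-0.83). Normalization within 24 blocks gave a Thio versus PBS difference of -0.51 for Timp2 (adjusted p = 0.023). Signals were 52.3 to 174 times the nearby median in Thio+IL-4c and 361 to 1014.9 times elsewhere. Within slides the differences were -1.81 in Thio+IL-4c versus Thio (adjusted p = 0.001) and -0.89 in Thio versus PBS (adjusted p = 0.0064).

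Timp3, the inhibitor that is bound to matrix, had signals of 138, 92.0, 78.04 and 65.5 in Thio+IL-4c, 462, 232 and 284 in Thio, 410, 395, 396 and 328 in IL-4c and 209, 242 and 189 in PBS. It exceeded the nearby spots on no array, at 0.50 to 1.52 times the nearby median. The difference was -1.32 in Thio+IL-4c versus Thio (SE 0.35, limma adjusted p = 0.01) and -0.84 within slide 2 (adjusted p = 0.091), and the groups overlapped. In the authors' table that difference was -0.77 (adjusted p = 0.0603). Nearby spots differed by -1.20 in the same comparison on the log2 scale of unscaled signals, beside -1.80 for Timp3. In Thio+IL-4c versus IL-4c it was -1.46 (SE 0.32, adjusted p = 0.0018), but 0.00 with the slide as a block (adjusted p = 1.0) and 0.04 under normalization within 24 blocks (adjusted p = 0.82). The Timp3 difference was -0.36 in Thio versus PBS (adjusted p = 0.44), 0.61 within slide 1 (adjusted p = 0.038) and -0.85 without Thio replicate 1 (adjusted p = 0.017). In IL-4c versus PBS it was -0.22 (adjusted p = 0.72). The interaction was -1.10 (adjusted p = 0.11), and it passed without Thio replicate 2 (-1.41, adjusted p = 0.043) or Thio+IL-4c replicate 1 (-1.34, adjusted p = 0.0443).

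**Figure D4:**
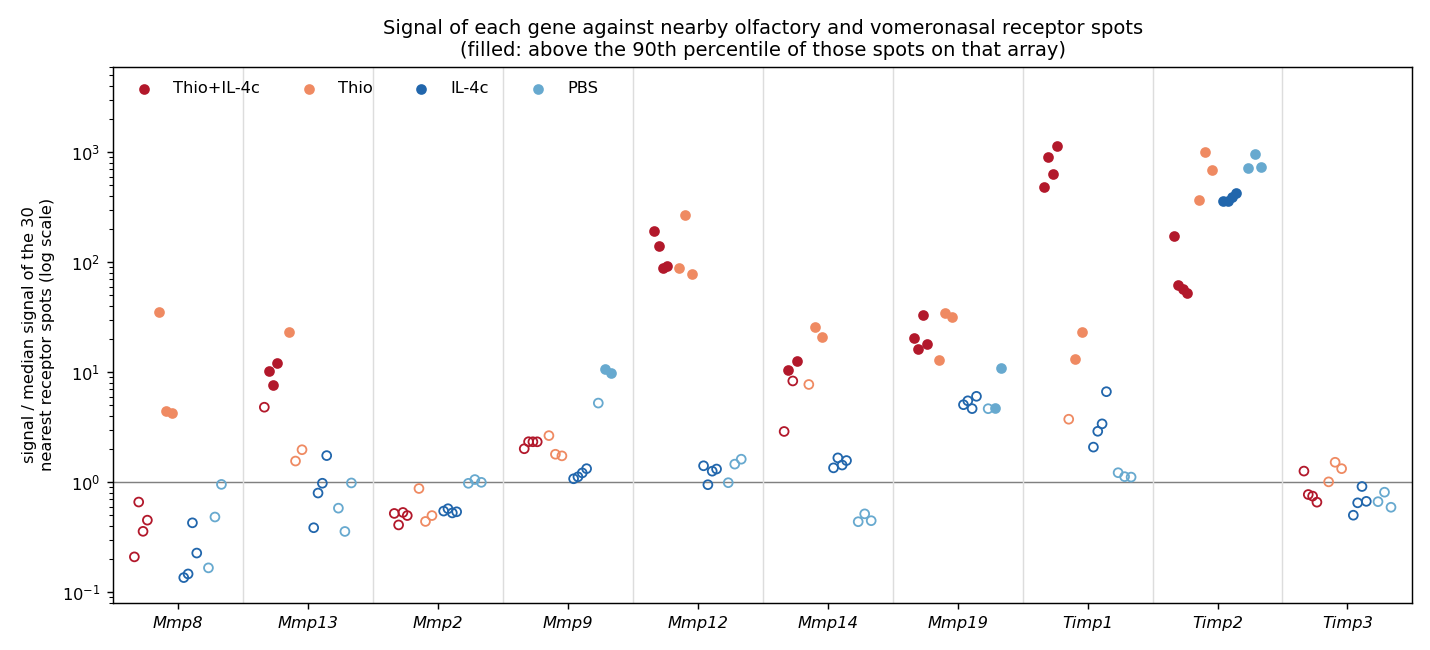
Signal of each gene divided by the median signal of the 30 nearest olfactory and vomeronasal receptor spots (vertical log axis) on every array, by group. Filled points exceed the 90th percentile of those spots. Mmp2 and Timp3 have no filled point on any of the 14 arrays, Mmp8 is filled in Thio only, and Timp1 reaches 1140.1 in Thio+IL-4c.

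Of 17 further family members listed, 15 were tested, Mmp16 and Mmp27 were not. Of all genes, 39.4% passed in Thio+IL-4c versus Thio, 32.2% in IL-4c versus PBS, 44.5% in Thio versus PBS and 70.0% in Thio+IL-4c versus IL-4c. The only call among the 15 in Thio+IL-4c versus Thio was a rise of Mmp25, at 1.95 (SE 0.60, limma adjusted p = 0.022). In IL-4c versus PBS 1 fell, Mmp17, a membrane-type enzyme anchored by a lipid, at -1.97 (SE 0.53, adjusted p = 0.013), and its interaction was 2.15 (adjusted p = 0.047). In Thio versus PBS 2 rose and 1 fell. The rises were the stromelysin Mmp10 at 2.45 (adjusted p = 0.016) and Mmp20, known from tooth enamel (adjusted p = 0.014). The fall was Mmp21 at -1.52 (adjusted p = 0.04). Thio+IL-4c versus IL-4c had 6 rises and 6 falls, with Mmp20 (adjusted p = 7.1e-05) and Mmp10 at 3.71 among the rises and Mmp21 at -2.10 among the falls.

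Some of these further genes were dim. Mmp20 had signals of 193 to 250 in Thio+IL-4c beside nearby medians of 454 to 609, and 6.38 to 29.95 in IL-4c beside 28.1 to 103. In Thio it had 15.9 to 283 beside 73.0 to 830, and in PBS 6.2 to 8.96 beside 22.4 to 63.9. Mmp20 was well above background on no IL-4c or PBS array, so it entered the test only through arrays of elicited cells. No size is given for its rises, since the nearby signals differed between these groups as well. Mmp21 had 6.76 to 16.3 in Thio+IL-4c beside 164 to 186. Mmp10 had 682 to 905 in Thio+IL-4c beside 552 to 642, 114 to 1387 in Thio beside 40.3 to 989, 52.9 to 157 in IL-4c beside 40.5 to 86.2 and 36.8 to 113 in PBS beside 20.3 to 71.98. Mmp17 was an exception, with 1495 to 1941 in Thio+IL-4c, 478 to 4772 in Thio, 297 to 549 in IL-4c and 698 to 818 in PBS, beside nearby medians of at most 588 in Thio+IL-4c and at most 22.4 in PBS. Its highest array was in Thio, which overlapped with Thio+IL-4c.

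Genes that activate or limit proteolysis at the cell surface were listed as a group of 24. Of these, 8 rose and 2 fell in Thio versus PBS (median 0.15, all genes -0.09), with cathepsin K, Ctsk, a collagen-cutting lysosomal enzyme, at 10.43 and the proteoglycan Sdc1 at 5.49. The largest fall was that of Serpinb2, an inhibitor of plasminogen activators, at -8.37. With IL-4 complex in elicited cells 3 rose and 4 fell (median -0.24, all genes 0.03), with Serpinb2 at 2.57 among the rises. Ctsk at -2.17 and the uptake receptor Lrp1, which clears proteases with their inhibitors, at -2.14 were the largest falls. In IL-4c versus PBS 1 rose and 3 fell, with cathepsin L, Ctsl, at 0.85 and cathepsin S, Ctss, at -1.01. The shares of all genes that passed were 44.5% in Thio versus PBS, 39.4% in Thio+IL-4c versus Thio and 32.2% in IL-4c versus PBS.

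Of 16 ADAM and ADAMTS proteases, which shed membrane proteins or cut proteoglycans, 2 rose and 3 fell in Thio+IL-4c versus Thio, 4 rose and 1 fell in IL-4c versus PBS, and 3 rose and 3 fell in Thio versus PBS. Adam8 differed by 1.89 in IL-4c versus PBS and by 2.62 in Thio versus PBS, and Adam19 by -2.04 in Thio+IL-4c versus Thio. The aggrecanase Adamts4 rose by 2.99 in IL-4c versus PBS. Median differences were 0.08, -0.08 and 0.18 in these comparisons, beside 0.03, -0.01 and -0.09 over all genes, of which 39.4%, 32.2% and 44.5% passed.

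Of 25 genes of matrix substrates and collagen uptake, 4 rose and 7 fell in Thio+IL-4c versus Thio, and 9 rose and 3 fell in Thio versus PBS. The medians were -0.03 and 0.67, beside 0.03 and -0.09 over all genes, of which 39.4% and 44.5% passed. Osteopontin, Spp1, a secreted matrix protein that metalloproteinases cut, differed by -4.15 in Thio+IL-4c versus Thio, 4.15 in IL-4c versus PBS and 6.14 in Thio versus PBS. Its interaction was -8.30. The mannose receptor Mrc1, which takes up collagen, rose by 1.54 in Thio+IL-4c versus Thio and fell by 0.96 in IL-4c versus PBS. Fbn1, a microfibril protein, was at least 10.6-fold higher in Thio than in PBS and fell by 2.34 in Thio+IL-4c versus Thio, where the groups overlapped.

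Of 21 AP-1, ETS and related transcription factors, 7 rose and 7 fell in Thio+IL-4c versus Thio, 6 rose and 5 fell in IL-4c versus PBS, and 9 rose and 6 fell in Thio versus PBS. The medians were 0.39, -0.39 and 0.08, beside 0.03, -0.01 and -0.09 over all genes, of which 39.4%, 32.2% and 44.5% passed. Batf3 at 2.71 and Fosl2 at 1.83 had the largest rises in Thio+IL-4c versus Thio, and Atf3 at -1.56 and Fos at -1.28 the largest falls. Atf3 rose by 3.29 in Thio versus PBS, and Tfec, of the Mitf family, rose by 2.53 in IL-4c versus PBS.

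Markers of other cells moved with some of these groups. Mmp8 and Mmp9 are also granule enzymes of neutrophils, and of 14 neutrophil markers 12 were tested. Of these, 4 rose and 1 fell in Thio+IL-4c versus Thio, in IL-4c versus PBS 1 rose and 1 fell, and in Thio versus PBS 4 rose and 2 fell. In these comparisons 39.4%, 32.2% and 44.5% of all genes passed. The summed level of the neutrophil markers, relative to the 75th percentile, was 15.58 to 23.11 in Thio+IL-4c and 11.51 to 19.70 in Thio. It was 11.32 to 15.07 in IL-4c and 10.85 to 13.05 in PBS. The sum joins genes that moved in opposite ways. Prtn3 had mean levels of -1.20 in Thio+IL-4c, -2.67 in Thio, 2.89 in IL-4c and 2.59 in PBS. Elane had mean levels of 2.69, 3.07, 1.13 and 1.34 in the same order. The members that passed in Thio+IL-4c versus Thio were Retnlg at 4.51, S100a9 at 2.82, Prtn3 at 1.47 and Cxcr2 at 1.097 among the rises, with Lcn2 at -1.29 as the fall. S100a8 did not pass there (-0.55, adjusted p = 0.18). S100a8, a calcium-binding protein of neutrophils and monocytes, had levels of 0.81 ± 0.57 in Thio+IL-4c (SD, n = 4), 1.36 ± 0.08 in Thio (SD, n = 3), -3.56 ± 0.51 in IL-4c (SD, n = 4) and -0.48 ± 0.14 in PBS (SD, n = 3). Itgb2l was well above background in no Thio, IL-4c or PBS array. Neutrophils carry CD11b but lack F4/80. The purity of the sort was not tested here, nor was the part of neutrophils in the Mmp8 and Mmp9 levels.

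Of 14 mesothelial and stromal markers, 0 rose and 4 fell in Thio+IL-4c versus Thio, 1 rose and 4 fell in IL-4c versus PBS, and 7 rose and 0 fell in Thio versus PBS. In these comparisons 39.4%, 32.2% and 44.5% of all genes passed. The summed level of the 14 markers was 2.77 to 3.31 in Thio+IL-4c and 3.96 to 5.70 in Thio. It was 2.33 to 2.88 in IL-4c and 2.17 to 2.39 in PBS. Wt1, a mesothelial transcription factor, was the only one of the 14 not well above background in any Thio+IL-4c array. None was absent in this sense from Thio, while Wt1 and Krt8 were from IL-4c, and Wt1, Upk1b and Col1a1 were from PBS. The stromal matrix genes Dcn and Col1a1 had signals of 2531 to 2948 and 577 to 715 in Thio+IL-4c, beside nearby medians of 678 to 840 and 299 to 451. The cells were sorted for CD11b and F4/80, and the part of stromal cells in the levels of the 10 genes was not tested. The list shares Col1a1, Col1a2 and Col3a1 with the matrix genes above.

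The summed level of 6 eosinophil markers was 56.4 to 85.0 in Thio+IL-4c, 1.90 to 2.22 in Thio, 1.33 to 1.69 in IL-4c and 1.48 to 1.56 in PBS. The rise of the sum in Thio+IL-4c was that of Ear1, a ribonuclease of the eosinophil family, with signals of 117621 to 177131 there. Of the 6, 1 rose and 1 fell in Thio+IL-4c versus Thio, where 39.4% of all genes passed. In IL-4c versus PBS 2 rose and 0 fell (32.2% of all genes passed), and in Thio versus PBS 3 rose and 2 fell (44.5%). In Thio+IL-4c versus IL-4c 4 rose and 2 fell (70.0%). Siglecf had mean levels of -1.35 in Thio+IL-4c, -0.82 in Thio, -3.68 in IL-4c and -4.45 in PBS. Epx, the eosinophil peroxidase, had 156.6 to 195.2 in Thio+IL-4c beside nearby medians of 363 to 618, and Prg2 had 141.6 to 335. Of 8 macrophage markers 7 were tested, of which 0 rose and 4 fell in Thio+IL-4c versus Thio and 0 rose and 5 fell in each of the comparisons with PBS.

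For the other marker lists, summed levels were as follows. Mast cell markers summed to 1.53 to 2.03 in Thio+IL-4c, 1.92 to 4.53 in Thio, 3.25 to 3.62 in IL-4c and 6.24 to 7.64 in PBS. B cell markers summed to 1.94 to 2.15 in Thio+IL-4c, 2.42 to 2.75 in Thio, 2.76 to 3.14 in IL-4c and 9.32 to 17.7 in PBS. T and NK cell markers summed to 6.70 to 9.18 in Thio+IL-4c, 5.74 to 6.86 in Thio, 4.91 to 5.45 in IL-4c and 7.65 to 9.01 in PBS. Monocyte markers summed to 22.0 to 32.1 in Thio+IL-4c, 15.2 to 19.3 in Thio, 4.82 to 5.39 in IL-4c and 25.7 to 41.1 in PBS. Of these, F13a1 had mean levels of 2.08, 3.69, -3.13 and 4.64 in that order, and Ccr2 of 4.00, 1.30, -3.64 and 0.02. PBS held the highest sums of mast cell and B cell markers without overlap, and their part in the PBS levels of the 10 genes was not tested.

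The genes whose patterns over the 14 arrays were most like those of the 10 were ranked by the mean absolute difference of log2 levels, after each gene's own mean had been subtracted, among 18811 genes. For Timp1 they were Ear1 (0.56), the vitamin D receptor Vdr (0.57) and the chemokine Ccl17 (0.76), where the median over genes was 2.64. For Mmp12 they were Slc18a1 (0.43), Slc9a4 (0.46) and Sdc1 (0.46), with a median of 2.91. For Mmp13 they were Gpc1 (0.52), Dcstamp (0.53), a protein of macrophage fusion, and the chemokine Ccl2 (0.63), with a median of 3.20.

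For Mmp8 the nearest patterns were those of Slc6a8 (0.55), Bex1 (0.57) and Cd83 (0.60), and for Mmp14 those of Tbc1d2 (0.38), Plk2 (0.39) and H2bc4 (0.39). For Timp2 they were Laptm4b, Cd37 and Mid1ip1, each at 0.14, and for Mmp19 Mef2a (0.34), Bnip3 (0.35) and Ell2 (0.40). For Mmp9 the second nearest was the vomeronasal receptor Vmn2r46 (0.26), after Filip1l (0.24) and before Cd2 (0.28). Mmp2 was nearest to Mpp3 (0.13) and Timp3 to Ccdc153 (0.13).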

How the data were processed

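Deposited were a scanner output for each of the 14 arrays, holding Cy3 spot intensities, and the authors' own log2 values. Agilent Feature Extraction 11.0.1.1 made the intensities per the file headers, whereas the submitters' processing notes give version 11.5 and limma. The processed signal is, per the file headers, background-subtracted and spatially detrended within the array. The authors' log2 values share a median of 9.2341 across arrays and correlated at 0.9889 to 0.9951 with log2 of the median signals. Their background correction is not stated in the labels used here.

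Control spots (3671 of 62976) and 113 to 165 outlier spots per array were left out. Of 55681 probes, 27229 were named through RefSeq accessions (GRCm38.p6), giving 20656 symbols. Values were log2 processed signal minus log2 of the 75th percentile of the array, with spots of a probe averaged, and each gene took its brightest probe among those well above background on at least 3 arrays. A linear model (limma 3.58.1, run under R 4.3.3, with eBayes) fitted 1 mean per group over all 14 arrays, two-sided, with Benjamini-Hochberg adjustment over 20338 genes. P-values beside genes are from this fit unless another setting is named, and are then from the limma fit under that setting. The fit was also run on simulated data with independent noise and no effect of slide, place or single arrays, so that run does not cover these. Groups came from the treatment label and replicate numbers from the titles.

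The 10 genes and the gene lists were chosen with earlier results of these data known. The rule named the 10 genes, called genes of the rest of the family, up to 2 rises and 2 falls per list and comparison, and the 3 nearest patterns of each called gene. Only some of those list genes were taken for the text, so they are a selection, and 1 of them is not reported here. Alternatives were other normalizations, normexp on the median signal (the mean signal was not used here), the authors' table, other filters and probe rules, the slide or the replicate number as a block, array weights, fits of the compared groups only and leaving out each array. Normalization within 24 blocks of the array, the Mmp9 split by side and the comparison with receptor spots were added after the data were seen.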

Additional observations from a re-analysis of the deposited data

Results flagged for a closer look

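Mmp19 had a level of -2.06 on IL-4c replicate 1, while the nearest other IL-4c array was at -0.55, a gap of 0.944 of the range of the group. Timp2 had a level of 4.20 on Thio+IL-4c replicate 1, while the nearest other array of that group was at 3.75, a gap of 0.834 of the range. Chance alone marks about 1 in 20 groups in this way, and 20 groups of 4 arrays were examined.

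The response to IL-4 complex differed between elicited and resident cells for 4 genes, by limma's interaction term, where 32.6% of all genes passed. The interaction was 3.07 for Mmp9 (adjusted p = 2.1e-05), -1.21 for Mmp12 (adjusted p = 0.0067), whose resident signals were 0.95 to 1.62 times the nearby median, -3.47 for Mmp14 (adjusted p = 6.2e-05) and 3.99 for Timp1 (adjusted p = 0.00031). For Mmp9 it was 5.27 from spots in the left part of the array and 1.01 from those in the right part (adjusted p = 0.097).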

How the results depend on the processing

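Of 1430 recomputed values of a gene in a comparison, 1352 were counted as unchanged, 29 lost the call, 38 gained it and 11 turned. A value was counted as turned only where its direction changed and the main or the recomputed value had passed. The 1352 kept their side of the threshold but include changes of direction between values that did not pass. Mmp13 in IL-4c versus PBS, for example, was 0.65 in the main fit and -0.62 under normexp. The turned values were, in Thio versus PBS, Mmp2 at 0.072 with the slide as a block and within slide 1, and Timp3 at 0.61 within slide 1 and 0.57 within 24 blocks. In Thio+IL-4c versus IL-4c they were Mmp2 at 0.77 and Timp3 at 0.004 with the slide as a block, Timp3 at 0.038 within 24 blocks and Mmp9 at -0.68 from right spots. In the interaction Mmp2 was at 0.70 with the slide as a block and between -0.78 and 0.70 when 1 array was left out, the highest without Thio replicate 1, and Mmp12 was at -0.51 in IL-4c versus PBS as the mean of its probes. The cause was not tested. Genes called in Thio versus PBS numbered 6016 with the slide as a block, 15094 with array weights, 3918 in a fit of both groups alone and between 6230 and 13873 when 1 array was left out, the highest without Thio replicate 1, against 9051. In Thio+IL-4c versus IL-4c, whose groups share no slide, 5425 genes were called with the slide as a block, against 14245. In the interaction 7 of the 10 genes were called under normexp, under normexp with quantile normalization and in the authors' table, where 40.5%, 33.5% and 44.4% of all genes passed, against 4 and 32.6%. With the replicate number as a block 4 of the 10 genes were called in IL-4c versus PBS and 4 in the interaction, with 8, 7 and 9 in the other comparisons, and 5789 to 13723 genes in all. The block ended the Mmp8 call in IL-4c versus PBS. Samples with the same number did not deviate together, with correlations of -0.446 to 0.368 over 19 pairs. Median scaling moved the median of all genes by -0.33 in Thio+IL-4c versus IL-4c. The share of positive calls in the interaction was 51.0% under normexp, against 39.0%. Differences between dim signals are limited by the place on the array.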
